A study of Mus musculus with 33 samples.

Results

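The RNA-seq libraries described here measured what all-trans retinoic acid (RA) does to embryoid bodies (EBs) made from Neil2-deficient mouse embryonic stem cells (mESCs). Libraries were chosen by their labels alone, which gave 6 of the 33 libraries of the series: 3 of Neil2-deficient EBs and 3 of Neil2-deficient EBs + RA. The cells were E14TG2a mESCs, an established line, in which Neil2 was cut with CRISPR/Cas9 from the plasmid pX330 and 2 guides under puromycin selection. Each library came from 1 of 3 independent clones, named #1, #11 and #14, and each clone gave 1 untreated and 1 treated library. EBs grew for 8 days in every group, and the treated portion received 5 µM RA from day 4. The same 2 stages of control clones #1, #4 and #7, which carried the empty vector, and of Neil1-deficient clones #7, #9 and #11 served for comparison. A clone carries its own history besides the edit, and the guides and the vector selection were common to all clones of a genotype, so that genotype and clonal origin rest on 3 lines each.

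NEIL2 is a DNA glycosylase that removes oxidised bases at the start of base excision repair. RA is a vitamin A derivative that enters cells, binds RAR and RXR nuclear receptors on DNA and so switches on genes that include its own degrading enzymes and the Hox genes, which set position along the head to tail axis. EBs are aggregates in which mESCs leave pluripotency and form cells of all germ layers, and RA is widely used to drive such aggregates toward hindbrain and spinal cord fates. The question was which genes RA induces and represses when Neil2 is mutated, and where that response differs from the response of control EBs.

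The guides are printed because they show what the edit removes and why a gene count cannot report it. Both lie on the minus strand of chromosome 14 in the NCBIM37 genome, in introns of Neil2 (chr14:63801280-63812378, minus strand) and were written with no capitals since no base is singled out.

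Neil2 guide 1, at chr14:63810934-63810953 and followed by the PAM GGG: gctgtgtggttaaggctgag

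Neil2 guide 2, at chr14:63810347-63810366 and followed by the PAM AGG: gctgtgaagaatgtctgaaa

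The predicted cuts lie 587 bases apart and enclose 1 whole exon of 154 bases (chr14:63810542-63810695), which holds the start of the coding sequence, out of 1932 exonic bases in the 5 exons of transcript ENSMUST00000038229.4. A gene-level count therefore does not measure the deletion. Neil2 stood at 18.3, 6.71 and 9.42 CPM in EBs and 5.94, 5.36 and 4.93 CPM in EBs + RA, in clones #1, #11 and #14 in this order, which is kept for all values below. CPM are gene counts scaled to a common library total after normalization for library composition. All 3 treated libraries lay below all 3 untreated ones, and Neil2 fell with RA (log2 fold change -1.12 ± 0.36, FDR = 0.037). The fold change is RA-treated over untreated with its standard error, and the FDR is the edgeR quasi-likelihood p adjusted by Benjamini-Hochberg over all genes tested. This call was lost when the clone #14 EBs + RA library was left out.

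The 6 libraries held 23861038 to 30969043 counts on genes. Pairs of replicates differed beyond counting noise (a chi-squared of 19.3 to 109 for each degree of freedom), and clone #1 stood apart. In EBs the summed level of 17 visceral and definitive endoderm genes was 1176 CPM in clone #1, 242.7 CPM in clone #11 and 659.4 CPM in clone #14, and in EBs + RA it was 922.2, 304.3 and 555.3 CPM. Clone #1 was thus the richest in endoderm transcripts in both conditions, and its part in any RA result was assessed by leaving out both of its libraries. Blood and macrophage lists stayed low: summed over 10 genes each, blood markers reached 4.33 to 6.24 CPM and macrophage markers 39.3 to 62.7 CPM, with Cd68 and Laptm5 making up most of the latter and Ptprc, Tyrobp and Aif1 near 0. Transcripts of pluripotency, endoderm, mesoderm, neural and trophoblast genes were present in the same libraries. In such bulk samples fewer cells of a type and less RNA per cell cannot be told apart.

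RA changed a large part of the transcriptome of Neil2-deficient EBs. Of 15876 genes tested, 6732 (42.4%) passed the limits that the study used, an FDR under 0.1 with a log2 fold change beyond 0.5 either way, and 3401 (21.4%) rose while 3331 (21.0%) fell. The rises reached further, with 260 genes above a log2 fold change of 3 and 131 genes below -3. Medians were 1.2 on the log2 scale among genes that rose and -1.02 among genes that fell, and 0.00 over all genes tested. All 3 treated libraries lay beyond all 3 untreated ones for 3217 of the genes that rose and 3093 of those that fell, against 27.6% of all tested genes that lay wholly above and 25.5% wholly below. Counts for gene lists are to be read against 21.4% rising and 21.0% falling overall. A number in brackets after a gene is its log2 fold change with RA, or its log2 difference where the response is set against control EBs.

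Retinoid genes themselves were among the strongest responses. RA response elements are pairs of half-sites, and the type with 5 letters between them (DR5) was sought in the 250 bases before each start site, on both strands, as 2 half-sites AGGTCA in direct repeat, in each of which the first letter could also be G and the third also T. Sequences are from RefSeq on GRCm38.p6, and the capitals mark the match.

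Rarb, chr14:16575483-16575559, minus strand: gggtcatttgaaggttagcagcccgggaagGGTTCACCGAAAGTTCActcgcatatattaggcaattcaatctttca

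Cyp26a1, chr19:37697746-37697807, plus strand: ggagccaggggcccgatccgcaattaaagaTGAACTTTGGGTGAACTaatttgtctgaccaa

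The Cyp26a1 run ends at the last base before its start site, whereas the Rarb run stops short of its own. The Rarb match reads along the gene and ends 36 bases before the start, and the Cyp26a1 match reads on the opposite strand and ends 15 bases before it. These were the 2 matches among 18 promoters of 12 listed direct RA targets found in RefSeq, whereas 29 of 32851 promoters of all genes (0.0883%) held one. Of genes with a promoter sequence, 3 of the 2336 that rose and 0 of the 2266 that fell held a DR5, against 5 of 10812 genes tested. Rarb and Cyp26a1 were among these 3. Repeats with 1 or 2 letters between the half-sites were sought too. They were held by 3 and 4 of the genes that rose and by 4 and 2 of those that fell, in this order. Among the 12 largest rises, 6 genes had a promoter in RefSeq and none of their 7 promoters held any of these repeats in this window.

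Rarb, the receptor gene known for inducing itself with RA (ENSMUSG00000017491, chr14:17263356-17651381, minus strand), stood at 0.813, 0.68 and 0.951 CPM in EBs and 65.4, 57.4 and 66.8 CPM in EBs + RA. The groups were far apart and the clones close together (log2 fold change 6.24 ± 0.20, FDR = 2.3e-06). Of the other receptors, Rarg fell (log2 fold change -1.62 ± 0.17, FDR = 0.00035) from 121, 152 and 136 CPM in EBs to 37.3, 53 and 45.9 CPM in EBs + RA, and Rxra rose (log2 fold change 0.82 ± 0.16, FDR = 0.0053). Rara passed the test at a log2 fold change of 0.56 (FDR = 0.029), a value just above the limit of 0.5 that dropped below it without clone #1 EBs or clone #1 EBs + RA. Rxrb and Rxrg had log2 fold changes of -0.20 and -0.36 and were not called, though Rxrg fell when both libraries of clone #1 were left out (log2 fold change -1.32, FDR = 0.0065). Receptor genes thus moved apart rather than as a group, with 3 of 6 rising and 1 falling.

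Of 17 genes that make, bind, take up or break down RA, 11 rose and 1 fell. The CYP26 enzymes, which oxidise RA for removal, led them. Cyp26b1 (ENSMUSG00000063415, chr6:84521938-84543740, minus strand) had the largest rise of any annotated protein-coding gene that met the naming rule, from 0.911, 0.34 and 0.589 CPM in EBs to 211, 208 and 219 CPM in EBs + RA (log2 fold change 8.36 ± 0.29, FDR = 2.4e-06). Cyp26a1 went from 89.5, 24.2 and 59.6 CPM in EBs to 1960.1, 1026 and 1252 CPM in EBs + RA (log2 fold change 4.59 ± 0.49, FDR = 0.00038). The clones differed in the untreated Cyp26a1 level, with clone #1 highest, and overlapped in no library with the treated level. Cyp26c1 also rose (log2 fold change 4.01), as did Dhrs3, which returns retinal to retinol (4.69), the binding protein Crabp2 (4.62), the retinol carrier Rbp4 (2.56) and the uptake receptor Stra6 (3.55). The Rbp4 call was lost when genes of low counts were kept in the test. Enzymes that make RA rose as well, namely Aldh1a1 (3.97), Rdh10 (1.87) and Aldh1a2 (log2 fold change 1.54 ± 0.47, FDR = 0.032). The Aldh1a2 call was lost without clone #14 EBs. Aldh1a3, Lrat, Rdh11 and Fabp5 were not called, with log2 fold changes of 0.38, 0.04, 0.16 and 0.31, but Aldh1a3 rose without clone #1 EBs (log2 fold change 1.37, FDR = 0.081). Crabp1 stood at 21.4, 9.05 and 9.56 CPM in EBs and 18.8, 6.43 and 6.76 CPM in EBs + RA and was not called (log2 fold change -0.35), but it fell by the same limits without clone #1 EBs + RA (log2 fold change -1.04, FDR = 0.084). The 1 gene that fell was Bco1, a carotene cleaving enzyme (log2 fold change -1.3 ± 0.52, FDR = 0.076), and it was no longer called in 7 of 14 alternative analyses, among them those without clone #1 EBs, clone #14 EBs, clone #1 EBs + RA, clone #11 EBs + RA or clone #14 EBs + RA.

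**Figure D1:**
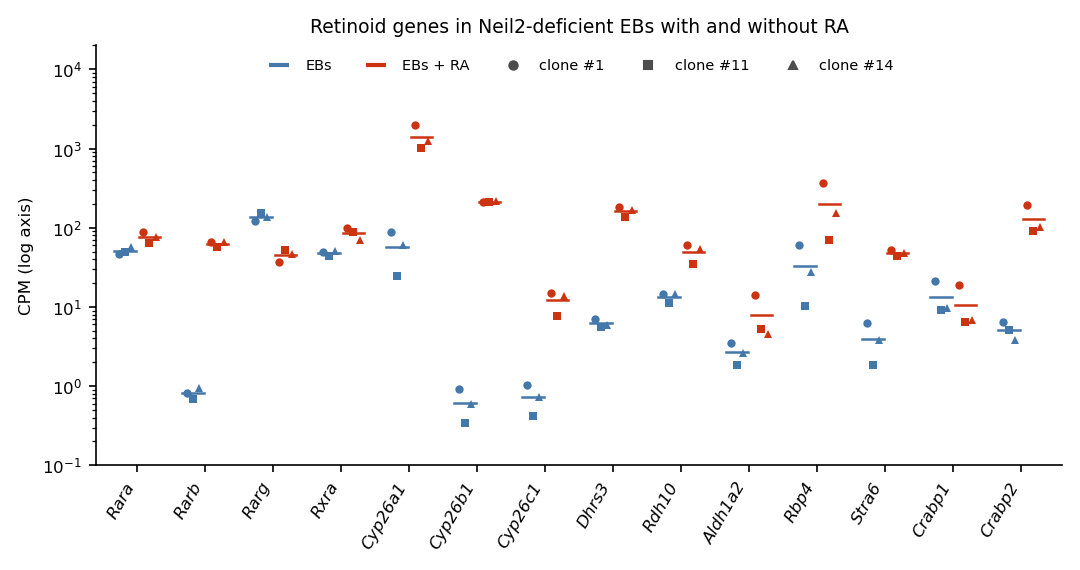
CPM on a log axis for 14 retinoid genes in each library of Neil2-deficient EBs (blue) and EBs + RA (red), with 1 point per clone and a line at the mean. The Rarb, Cyp26a1 and Cyp26b1 points with RA lie far above those without it, and the Crabp1 points of the groups overlap.

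Among 19 listed early or direct RA targets, 18 were tested, and 16 rose with a median log2 fold change of 4.61. Stra8, a meiosis gene named for its induction by RA, went from 25.8, 31.7 and 15.4 CPM in EBs to 1488, 1122 and 1284 CPM in EBs + RA (log2 fold change 5.71 ± 0.31, FDR = 2.6e-05). The homeobox genes Meis1 and Meis2, partners of Hox proteins on DNA, rose by 4.61 and 2.63 on the log2 scale, the transglutaminase Tgm2 by 3.92 and the corepressor Nrip1 by 3.39. Cdx1, a caudal homeobox factor that acts upstream of Hox genes, rose from 0.846, 1.15 and 1.04 CPM in EBs to 13.3, 38.2 and 35.1 CPM in EBs + RA (log2 fold change 4.8 ± 0.43, FDR = 0.0002).

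Hox genes rose almost without exception. All 11 tested of 12 genes in paralog groups 1 to 4, all 11 in groups 5 to 8 and 11 of 12 tested in groups 9 to 13 (16 listed) rose, with medians of 6.4, 5.35 and 2.69 on the log2 scale. A gene had to reach a minimum count to be tested, so the medians describe tested members only. Hoxb1, an anterior gene of hindbrain segments, went from 0.488, 1.19 and 0.317 CPM in EBs to 128, 71.1 and 71.9 CPM in EBs + RA (log2 fold change 7.06 ± 0.46, FDR = 5.6e-05). Hoxa5 (ENSMUSG00000038253, chr6:52151753-52154586, minus strand) went from 0.423, 0.595 and 0.362 CPM in EBs to 118, 100.1 and 103 CPM in EBs + RA (log2 fold change 7.82 ± 0.23, FDR = 1.9e-06). In both genes the untreated level was low in every clone. Hoxb5, Hoxb6, Hoxc5, Hoxc8, Hoxa4, Hoxa2 and Hoxa3 completed the Hox genes among the 12 largest rises, at log2 fold changes of 7.76, 7.73, 7.06, 7.08, 7.04, 6.88 and 6.4. Hoxa3 overlaps Hoxa4, Hoxa5 and Hoxa6 on its own strand in this annotation, and Hoxc5 and Hoxc8 overlap Gm20398. Reads counted as ambiguous between genes (2.18 to 2.65% of reads in the 6 libraries) were left out, so that overlapping genes may be undercounted.

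The 12 largest rises also held Nr2f1, a nuclear receptor of neural patterning that overlaps A830082K12Rik on the other strand, from 0.13, 0.17 and 0.0906 CPM in EBs to 17.7, 7.37 and 12.2 CPM in EBs + RA (log2 fold change 6.49 ± 0.49, FDR = 0.0001). The processed transcript 0610040B09Rik, which lies across Hoxb5 and Hoxb6 on the opposite strand (chr11:96152338-96168224), had 0 counts in the untreated libraries and 817 in the treated ones. Against a floor of 3 counts over the group it was at least 243-fold higher with RA. Since the library kit did not mark strand, reads in the stretches it shares with its neighbours cannot be assigned by strand. Hoxb3 had 1 count untreated and 337 treated, a ratio of 301 with a 95% counting interval of 53.7 to 11920.

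Posterior members rose from low levels. Hoxb9 went from 2.83, 2.68 and 2.72 CPM in EBs to 48.2, 32.6 and 31.3 CPM in EBs + RA (log2 fold change 3.74 ± 0.23, FDR = 4.8e-05), and Hoxc9 from 0.163, 0.127 and 0.0453 CPM in EBs to 9.02, 5.2 and 7.99 CPM in EBs + RA (log2 fold change 5.91 ± 0.46, FDR = 0.00012). Hoxb13 also rose (log2 fold change 5.64 ± 0.25, FDR = 9.5e-06). Hoxd13, the last gene of its cluster, was the 1 tested member without a call (log2 fold change 0.64), and with clone as a block it passed (log2 fold change 0.66, FDR = 0.084), as it did without clone #1 EBs. Hoxa11, Hoxc11, Hoxc12, Hoxd12 and Hoxd4 had too few counts for the test.

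**Figure D2:**
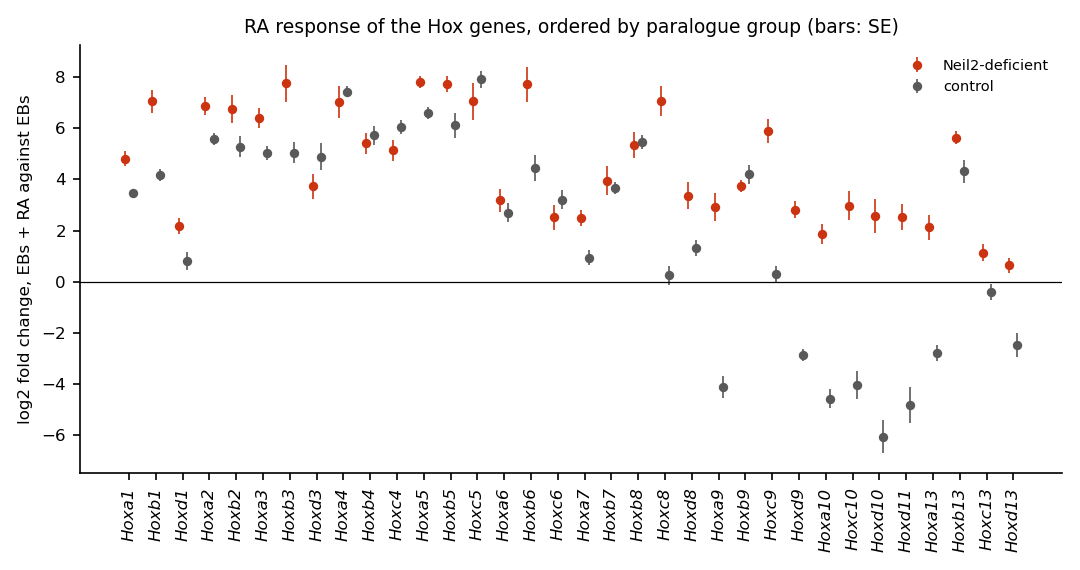
Log2 fold change with RA (EBs + RA over EBs) of each Hox gene tested, ordered by paralog group, for Neil2-deficient and control EBs, with bars for the standard error. All genes tested in both genotypes are shown. In groups 9 to 13 the 12 Neil2-deficient values lie above 0, whereas 9 of the 12 control values lie below it and 8 of them were called as falls.

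RA lowered genes of the early epiblast. Otx2, a homeobox factor of epiblast and forebrain (ENSMUSG00000021848, chr14:49277354-49287319, minus strand), had the largest fall that met the naming rule, from 128, 106 and 121 CPM in EBs to 0.457, 1.36 and 0.986 CPM in EBs + RA (log2 fold change -6.99 ± 0.32, FDR = 1.2e-05). Fgf5, a marker of primed epiblast, went from 21.8, 46.8 and 47.5 CPM in EBs to 0.647, 0.455 and 0.352 CPM in EBs + RA (log2 fold change -6.34 ± 0.41, FDR = 5.6e-05). Both were low in all 3 treated libraries. Of 9 tested formative and primed epiblast genes 8 fell, and the neural crest and epiblast factor Foxd3 (-4.0), the Wnt effector Lef1 (-3.19) and the methyltransferases Dnmt3b (-2.55) and Dnmt3a (-1.04) were among them.

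Pluripotency genes fell in the same direction but kept residual levels. Of 19 members 16 fell and none rose, with a median log2 fold change of -2.2. Pou5f1, which encodes the core factor OCT4 (ENSMUSG00000024406, chr17:35642982-35647721, plus strand), went from 406, 837 and 760.0 CPM in EBs to 40.0, 131 and 96.5 CPM in EBs + RA (log2 fold change -2.94 ± 0.44, FDR = 0.0016). Clone #1 was lowest in both conditions, and no treated library reached an untreated one. The co-receptor gene Tdgf1 (-4.57) and the growth factor gene Fgf4 (-4.46) were among the 12 largest falls. Nanog, Esrrb and Zfp42, factors of the naive state, fell with log2 fold changes of -2.61, -2.69 and -2.81. The RNA-binding protein gene Lin28a (-1.34), Dppa5a, a gene of early germ and stem cells (-2.02), and Sox2, shared by pluripotent and neural cells (-3.29), fell too. Klf4 and Dppa2 were not called, at -0.46 and -0.40, but Klf4 fell without clone #14 EBs (log2 fold change -0.50, FDR = 0.055) and Dppa2 without clone #1 EBs (log2 fold change -0.71, FDR = 0.098).

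FGF signalling genes fell throughout. All 12 listed members fell, with a median of -3.6, and the ligand Fgf15 was among the 12 largest falls, from 10.6, 36.5 and 30.4 CPM in EBs to 0.913, 1.01 and 0.387 CPM in EBs + RA (log2 fold change -5.09 ± 0.55, FDR = 0.00041). The feedback inhibitors Spry4 (-4.22) and Dusp6 (-1.2) and the ETS factor Etv5 (-3.86), which report FGF signalling in many tissues, fell with the ligands. Nodal, the ligand that maintains epiblast and induces mesendoderm, fell (log2 fold change -1.52 ± 0.43, FDR = 0.024), as did Foxh1, its DNA-binding partner (-1.55), and 7 of 9 tested Nodal pathway genes fell. The Nodal call was lost when genes of low counts were kept in the test, which left 4 falls on that list. Vrtn (-5.94), the haematopoietic factor Myb (-5.0), the slit diaphragm gene Nphs1 (-4.9) with its neighbour and relative Kirrel2 (-4.88), the receptor Notch4 (-4.48) and Pdzd4 (-4.37) were also among the 12 largest falls.

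Neural genes split. Of the 12 tested of 15 neural progenitor genes matched, 4 rose and 4 fell. The summed level of the 15 genes fell, from 553.5, 729.2 and 709.2 CPM in EBs to 142.4, 201.3 and 195.9 CPM in EBs + RA. Sox2, given above with the pluripotency genes, is also on this list and was among the falls. A sum is set mostly by genes of high level, so its fall does not show a loss shared by the list. Pax6, a homeobox factor of neuroectoderm (ENSMUSG00000027168, chr2:105509053-105543317, plus strand) that overlaps Elp4 and Pax6os1, rose modestly, from 3.22, 3.44 and 2.45 CPM in EBs to 7.84, 6.01 and 7.29 CPM in EBs + RA (log2 fold change 1.18 ± 0.26, FDR = 0.008). The zinc finger factor Zic1 rose by 2.31 and the homeobox factor Lhx2 by 2.84. Nes, an intermediate filament of progenitors, and Msi1, an RNA-binding protein of progenitors, were not called (0.42 and 0.58), and Msi1 was with clone as a block (log2 fold change 0.66, FDR = 0.02). Both rose without clone #1 EBs, Nes (log2 fold change 0.54, FDR = 0.024) and Msi1 (log2 fold change 0.99, FDR = 0.0031). Sox1 was not analysed here.

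Neuronal genes mostly fell. Of 15 tested of 18 neuronal genes, 9 fell and 2 rose, with a median of -1.21. Tubb3, a neuron-rich tubulin (ENSMUSG00000062380, chr8:125935324-125945915, plus strand) that overlaps Gm20388 on the same strand over 10592 bases, stood at 21.2, 78.5 and 58.2 CPM in EBs and 7.31, 17.5 and 15.3 CPM in EBs + RA. Every treated library lay below every untreated one (log2 fold change -2.01 ± 0.47, FDR = 0.011). The RNA-binding protein gene Elavl3 (-1.48), the tubulin regulator Stmn2 (-3.5) and the neurofilament genes Nefl (-2.24), Nefm (-1.89) and Ina (-3.74) fell as well. The synaptic calcium sensor Syt1 went the other way (1.58). The rises numbered 1 without clone #11 EBs, clone #14 EBs, clone #1 EBs + RA or clone #14 EBs + RA and 1 at an FDR below 0.05. Map2 also passed at 0.57, near the limit of 0.5, and lost its call in 8 of 14 alternatives, among them those without clone #11 EBs, clone #14 EBs, clone #1 EBs + RA, clone #11 EBs + RA or clone #14 EBs + RA. The summed level of the 18 genes was 168.2, 353.7 and 285.1 CPM in EBs and 53.99, 83.2 and 65.76 CPM in EBs + RA, so the groups did not overlap.

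Factors that commit progenitors to neurons were scarcely expressed. Only 3 of 10 proneural genes had enough counts for the test. Neurod1, which overlaps Cerkl on the same strand, fell (log2 fold change -1.96 ± 0.34, FDR = 0.0031) from 1.95, 2.72 and 2.04 CPM in EBs to 0.609, 0.682 and 0.458 CPM in EBs + RA. Insm1 was not called (-0.98) but fell with clone as a block (log2 fold change -1.04, FDR = 0.042) and without clone #1 EBs. Neurog1, Neurog2 and Neurod4 were not tested for want of counts in either condition.

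**Figure D3:**
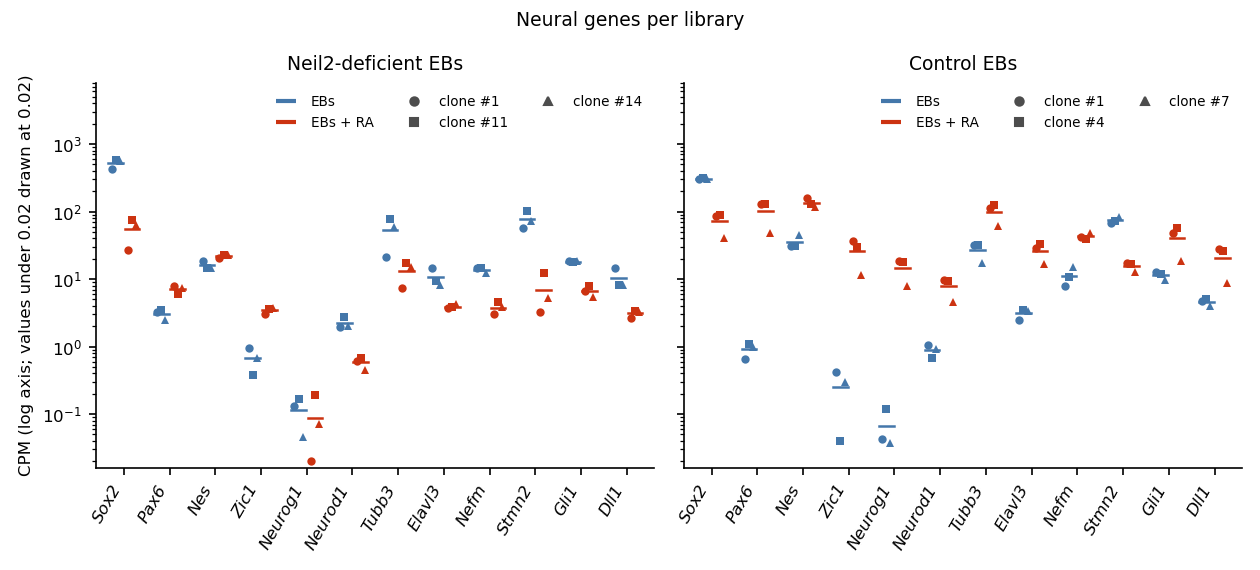
CPM on a log axis for neural and neuronal genes in each library of Neil2-deficient and control EBs, untreated (blue) and with RA (red), with 1 panel per genotype, 1 point per clone and a line at the mean. Tubb3 lies lower with RA in the 3 Neil2-deficient clones and higher with RA in the 3 control clones.

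Hindbrain genes rose with few exceptions. Of 9 tested hindbrain genes 8 rose, 6 of them Hox genes already counted above. Irx3, a homeobox factor, was among the rises (2.91), whereas the receptor Epha4 fell (-1.35). Gbx2, which sets the border of midbrain and hindbrain, rose (log2 fold change 2.62 ± 0.37, FDR = 0.0013). Pax2 rose (log2 fold change 1.47 ± 0.49, FDR = 0.043) but lost its call without clone #14 EBs or clone #14 EBs + RA.

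Neural crest genes rose in part. Of 20 tested of 22 genes at the neural plate border and in the crest, 12 rose and 3 fell, with a median of 1.32. Sox9, a factor of crest and cartilage, had the largest rise among them, from 0.358, 0.255 and 0.181 CPM in EBs to 11.6, 5.78 and 9.96 CPM in EBs + RA (log2 fold change 5.02 ± 0.42, FDR = 0.00016). Pax3, a neural plate border factor, went from 0.456, 0.085 and 0.0906 CPM in EBs to 1.26, 1.53 and 1.27 CPM in EBs + RA (log2 fold change 2.54 ± 0.58, FDR = 0.0096). All treated Pax3 and Sox9 values lay above the untreated ones. The receptor Ednrb (3.1), the zinc finger factor Snai2 (2.19), Twist1 (1.52) and Tfap2a (1.28) rose too, while the neurotrophin receptor Ngfr fell (-1.54). Pax7 was not called (-0.39). Of the 9 matched genes that the study named as neural or crest markers from these samples, 6 were tested and 4 rose (Pax3, Hoxa2, Pax6 and Pax2), which is not independent evidence of their direction. Nes and Crabp1 were the other tested members, and Crabp1 made the count of falls 1 in place of 0 without clone #1 EBs + RA. Tfap2b and Neurog1 had too few counts.

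Mesoderm genes moved both ways. Of 14 tested of 16 genes of primitive streak and mesoderm 5 rose and 4 fell, with a median log2 fold change of 0.29. The streak genes T (log2 fold change -2.59 ± 0.66, FDR = 0.016), Eomes (-1.46) and Mixl1 (-1.34) fell, as did Tcf15, a somite factor (-2.35). T, the brachyury gene (ENSMUSG00000062327, chr17:8627288-8635361, plus strand), stood at 0.651, 4.16 and 2.85 CPM in EBs and 0.266, 0.585 and 0.422 CPM in EBs + RA. The rises were those of Foxc1 (3.9), Foxc2 (5.0), the somite factor Meox1 (3.96), Osr1 and the lateral plate factor Foxf1, from 0.293, 0.0425 and 0 CPM in EBs to 2.02, 0.877 and 1.02 CPM in EBs + RA (log2 fold change 3.31 ± 0.79, FDR = 0.012). Osr1, a factor of intermediate mesoderm, had 1 count untreated and 88 treated, a ratio of 78.6 with a 95% counting interval of 13.75 to 3139.

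Mesenchymal and contractile genes rose more widely in number. Of 12 tested of 14 mesenchyme genes 8 rose and 2 fell. The summed level of the 14 genes fell, however, from 675.7, 617.3 and 616.2 CPM in EBs to 324.5, 396.5 and 394 CPM in EBs + RA. The matrix protein gene Tnc went from 0.0325, 0.127 and 0.0453 CPM in EBs to 4.95, 2.83 and 2.53 CPM in EBs + RA (log2 fold change 5.58 ± 0.57, FDR = 0.00032), and the smooth muscle actin gene Acta2 from 0.456, 0.255 and 0.362 CPM in EBs to 16.4, 8.22 and 8.06 CPM in EBs + RA (log2 fold change 4.87 ± 0.43, FDR = 0.00019). The actin-binding gene Tagln (3.4) and the growth factor receptor Pdgfrb (2.12) moved the same way. Fn1, the fibronectin gene, fell (-1.68). The noncanonical ligand Wnt5a rose from 0.748, 1.4 and 1.45 CPM in EBs to 8.03, 4.09 and 4.47 CPM in EBs + RA (log2 fold change 2.19 ± 0.40, FDR = 0.0039), and the BMP target genes Id1 (1.98), Id3 (2.2) and Msx2 (1.45) rose while the ligand Bmp4 fell (-1.85).

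Hedgehog genes moved both ways and Notch genes mostly fell. Of 9 tested Hedgehog genes 4 fell and 2 rose, with a median log2 fold change of 0.21, the second count being 1 without clone #1 EBs + RA or clone #14 EBs + RA, 1 with both libraries of clone #1 left out and 1 at an FDR below 0.05. Gli1, a target and effector of the pathway, stood at 18.3, 17.8 and 18.5 CPM in EBs and 6.54, 7.96 and 5.39 CPM in EBs + RA (log2 fold change -1.48 ± 0.21, FDR = 0.0012). Its receptor and target Ptch1 (-1.19) and the effector Gli2 (-1.61) also fell, and Gli3, which acts mainly as a repressor, rose (1.39). Of 13 tested Notch genes 8 fell and 1 rose, with a median of -0.93, the second count being 2 with clone as a block. The ligand Dll1 (-1.77) and the receptor Notch1 (-1.53) fell and the target Hes1 rose (0.68).

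Heart and vessel genes moved both ways. Of 15 tested cardiac genes 7 rose and 4 fell, with a median log2 fold change of 0.46, the falls numbering 2 without clone #11 EBs. Actc1, an actin of early heart and muscle, went from 0.13, 0.127 and 0.0453 CPM in EBs to 2.4, 0.649 and 0.81 CPM in EBs + RA (log2 fold change 3.54 ± 0.71, FDR = 0.0057). Of 10 tested endothelial genes 2 rose and 3 fell, with a median of 0.23, and the VEGF receptor Kdr was among the rises (log2 fold change 1.2 ± 0.29, FDR = 0.013). The summed level of the 12 listed endothelial genes fell, from 101.4, 135.2 and 136 CPM in EBs to 68.3, 70.34 and 65.06 CPM in EBs + RA. Of 8 tested motor and sensory neuron genes 6 rose, or 3 without clone #14 EBs. Lhx3, a factor of motor neurons, was one of them (log2 fold change 2.66 ± 0.52, FDR = 0.0052).

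Trophoblast genes mostly rose, and germline and epithelial genes moved both ways. Of 11 tested trophoblast genes 7 rose and 1 fell. Among the rises were Cdx2, the trophectoderm and tail-bud factor (log2 fold change 1.56 ± 0.44, FDR = 0.024), Elf5 (2.56), Krt7 (3.11) and Plac1 (2.62). Of 12 listed germline genes 6 rose and 4 fell, with a median log2 fold change of 0.48, so the list did not move as a group. The meiosis and germ cell genes Rec8 (3.71), Sohlh1 (2.63) and Dazl (1.58) rose beside Stra8. Of 10 epithelial genes 5 rose and 3 fell, the rises numbering 3 without clone #11 EBs or clone #14 EBs + RA.

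Endoderm genes moved little as lists but differed between clones. Of 17 visceral and definitive endoderm genes 3 rose and 4 fell. The rises became 5 without clone #1 EBs, 6 without clone #11 EBs + RA, 5 with both libraries of clone #1 left out, 9 with clone as a block and 5 with DESeq2, and the falls became 2 without clone #1 EBs and 2 with genes of low counts kept in the test. Gata6, a factor of primitive endoderm, went from 25.4, 7.86 and 13.8 CPM in EBs to 97.5, 36.9 and 50.9 CPM in EBs + RA (log2 fold change 1.95 ± 0.47, FDR = 0.012). It was higher with RA in 3 of 3 clones and highest in clone #1. Foxa1 rose (log2 fold change 2.57 ± 0.32, FDR = 0.00075), and Amn, a partner of the visceral endoderm uptake receptor, fell (log2 fold change -2.37 ± 0.57, FDR = 0.012). Of 13 parietal endoderm and basement membrane genes 2 rose and 1 fell. Those rises became 1 without clone #11 EBs or clone #1 EBs + RA, 4 without clone #1 EBs, 4 with both libraries of clone #1 left out, 6 with clone as a block and 1 with genes of low counts kept in the test, and the fall became 0 without clone #14 EBs, clone #1 EBs + RA or clone #14 EBs + RA, 0 with genes of low counts kept in the test and 0 at an FDR below 0.05. Plat, the tissue plasminogen activator gene, went from 24.4, 6.5 and 13 CPM in EBs to 135, 58.4 and 72.5 CPM in EBs + RA (log2 fold change 2.57 ± 0.48, FDR = 0.0042).

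**Figure D4:**
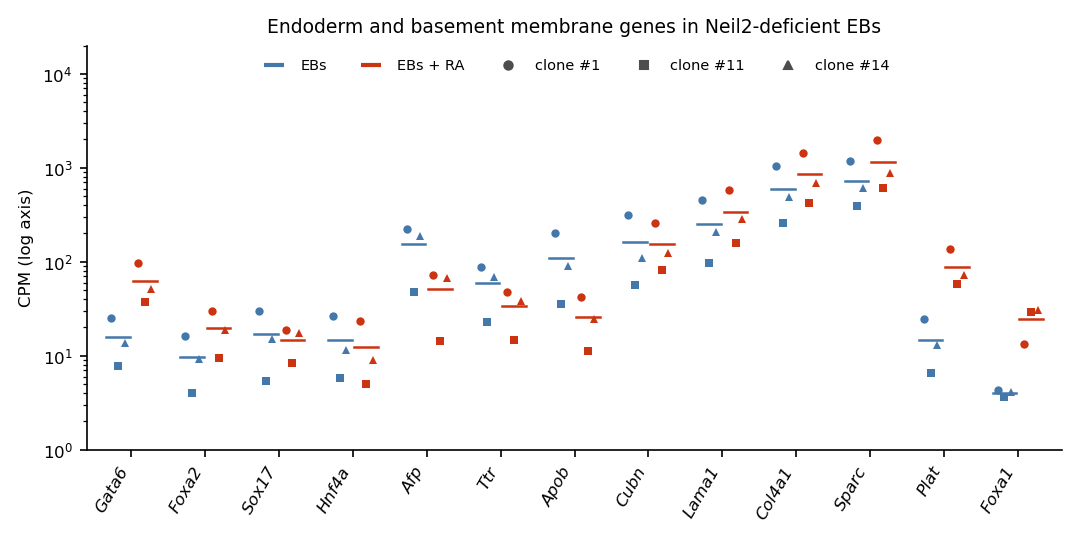
CPM on a log axis for endoderm genes in each library of Neil2-deficient EBs, untreated (blue) and with RA (red), with 1 point per clone and a line at the mean. Gata6 was higher with RA in each clone, and for Gata6, as for Lama1, Col4a1 and Sparc, clone #1 lay highest in both conditions.

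Repair and cell cycle genes fell modestly. Of 18 base excision repair genes 9 fell and none rose, with a median log2 fold change of -0.51, among them Ung, the uracil glycosylase (log2 fold change -1.43 ± 0.25, FDR = 0.0034), and Parp1, a sensor of strand breaks (-1.56). The count was 6 without clone #1 EBs + RA. Neil1 was not called (-0.04). Of 18 p53 target genes 5 rose and 2 fell, including Phlda3 (1.27), Perp (1.26) and Plk2 (0.90) upward and Pmaip1 (-0.74) downward. The falls numbered 1 without clone #14 EBs, clone #1 EBs + RA or clone #11 EBs + RA. Of 13 proliferation genes 9 fell and none rose, with Ccnd1, a G1 cyclin, furthest (log2 fold change -3.49 ± 0.39, FDR = 0.00048) and Top2a at -1.21. Mki67 was not called (0.05).

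The response was then set against that of control EBs. By the same limits 7019 of 15919 genes changed with RA in control EBs (44.1%), of which 3717 (23.3%) rose and 3302 (20.7%) fell. Among 15367 genes tested in both, 2009 rose in both, which was 61.6% of the genes that rose in Neil2-deficient EBs and 59.2% of those that rose in controls. Another 2029 fell in both, 62.4% and 63.1% of the respective lists. Opposite calls were fewer, with 110 genes that rose in Neil2-deficient and fell in control EBs and 125 the other way round. The difference itself was tested as an interaction of RA with genotype over the 12 libraries. Of 16757 genes 2581 (15.4%) differed at an FDR below 0.1, 1243 (7.42%) with a higher and 1338 (7.98%) with a lower response in Neil2-deficient EBs. With clone as a block 4163 differed, 2138 higher and 2025 lower. Leaving out 1 library gave 1618 to 3500 genes, with 1618 without control clone #4 EBs + RA and 1644 without control clone #1 EBs + RA. This test uses the same Neil2-deficient libraries as the RA response above, and a log2 difference is the Neil2-deficient minus the control log2 fold change.

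**Figure D5:**
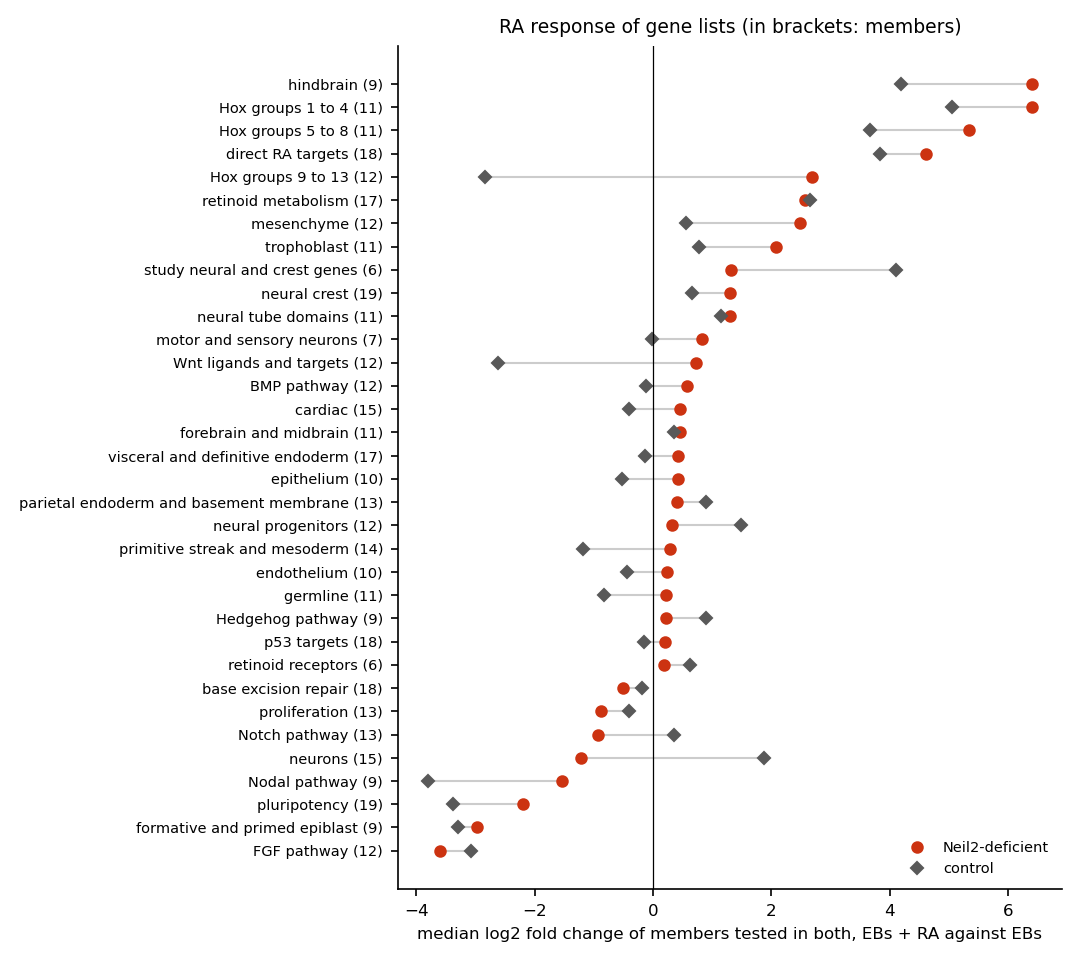
Median log2 fold change with RA over the members of each gene list tested in both genotypes, for Neil2-deficient and control EBs, ordered by the Neil2-deficient median. The neuronal list lies at -1.21 in Neil2-deficient and 1.87 in control EBs, and Hox groups 9 to 13 at 2.69 and -2.84.

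The neuronal response was lower. Of the neuronal genes, 13 of 17 tested had a lower and none a higher response, and in control EBs 12 of 17 rose. Tubb3 stood at 31.8, 31.7 and 17.1 CPM in control EBs and 114, 124 and 61.7 CPM in control EBs + RA, so that it rose in control EBs where it fell in Neil2-deficient ones (log2 difference -3.9 ± 0.63, FDR = 0.0017). Elavl3 (-4.56), Nefm (-3.83) and Ina (-3.46) gave log2 differences of the same sign. Proneural factors differed too, with 6 of 8 lower and none higher. Neurog2 stood at 0.163, 0 and 0.0906 CPM in EBs and 0.0761, 0.0974 and 0.141 CPM in EBs + RA, and at 0, 0 and 0.0374 CPM in control EBs and 14, 13.3 and 5.37 CPM in control EBs + RA. It rose in control EBs, whereas the Neil2-deficient values rest on too few counts for a test of their own (log2 difference -9.36 ± 1.47, FDR = 0.0015). Insm1, a zinc finger factor of newborn neurons (log2 difference -5.91 ± 0.65, FDR = 0.00014), and Nhlh2, a bHLH factor of neurons (log2 difference -7.15 ± 0.97, FDR = 0.00054), were among the 6 most negative differences of genes whose mean log2 CPM reached 2, a limit below which Neurog2 lay.

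Other genes on that list were Miat, a long noncoding RNA (ENSMUSG00000086878, chr5:112642248-112657968, minus strand), Tcfap2b, the crest factor now called Tfap2b, the netrin receptor Unc5a and Pax6. Miat stood at 6.57, 6.67 and 6.93 CPM in EBs and 0.0381, 0.682 and 0.352 CPM in EBs + RA, and at 2.5, 1.94 and 1.65 CPM in control EBs and 73.4, 97.1 and 38.3 CPM in control EBs + RA (log2 difference -9.28 ± 0.64, FDR = 6.5e-06). Tcfap2b stood at 0.293, 0 and 0.0906 CPM in EBs and 0.152, 0 and 0.106 CPM in EBs + RA, and at 0.0427, 0.198 and 0.225 CPM in control EBs and 26.7, 20.9 and 8.15 CPM in control EBs + RA (log2 difference -7.79 ± 1.46, FDR = 0.0048), a call that was lost without Neil2 clone #1 EBs. Both were below 1 CPM in every treated Neil2-deficient library. Unc5a differed by -6.37. Pax6, which rose in both genotypes, stood at 0.662, 1.11 and 0.973 CPM in control EBs and 128, 129 and 47.8 CPM in control EBs + RA (log2 difference -5.65 ± 0.49, FDR = 2.6e-05). Of the study's 9 neural and crest markers, 6 had a lower response and 1, Hoxa2, a higher one (log2 difference 1.28 ± 0.42, FDR = 0.075), which again is not independent of their choice. Hoxa2 stood at 0.163, 0.127 and 0.226 CPM in EBs and 26, 19.6 and 17.4 CPM in EBs + RA. In control EBs it stood at 1.07, 1.03 and 1.12 CPM, and in control EBs + RA at 57.1, 62.6 and 37.3 CPM. Its higher response thus started from a lower untreated level, and its treated level stayed below that of control EBs + RA. The Hoxa2 call was lost in 8 of 18 alternatives, among them those without control clone #1 EBs, control clone #4 EBs, control clone #7 EBs, Neil2 clone #1 EBs, Neil2 clone #11 EBs or Neil2 clone #1 EBs + RA.

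Neural progenitor genes went the same way, with 9 of 15 lower and none higher, and Hes5, a Notch effector of progenitors, showed a difference of -7.28 with too few counts in Neil2-deficient EBs for a test of its own. Notch genes had 9 of 14 members lower and 1 higher, and Hedgehog genes 6 of 10 lower and none higher, with Dll1 at -3.96 and Notch1 at -1.86. Gli1 stood at 12.7, 11.8 and 9.62 CPM in control EBs and 47.4, 56.5 and 18.2 CPM in control EBs + RA and rose in control EBs (log2 difference -3.32 ± 0.44, FDR = 0.00045). Its levels in Neil2-deficient EBs thus moved down where those of control EBs moved up. Crest genes split, with 6 lower, such as Pax7 (-3.18) and Ednrb (-2.5), and 4 higher, such as Msx2 (2.83). The higher count was 7 without Neil2 clone #1 EBs, 7 with both libraries of clone #1 left out and 7 with clone as a block. Pax3 had log2 fold changes of 2.54 in Neil2-deficient and 3.71 in control EBs and no called difference (log2 difference -1.18 ± 0.77, FDR = 0.38).

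Posterior Hox genes gave higher responses, and mesoderm genes did in part. Of Hox genes in groups 9 to 13, 12 of 14 tested had a higher and none a lower response. Hoxd9, among the 6 most positive differences of genes whose mean log2 CPM reached 2, stood at 0.716, 0.467 and 0.634 CPM in EBs and 3.58, 4.97 and 4.68 CPM in EBs + RA, and at 14.6, 16.6 and 10.2 CPM in control EBs and 2.19, 1.55 and 1.85 CPM in control EBs + RA (log2 difference 5.69 ± 0.38, FDR = 6.2e-06). Untreated control EBs thus expressed a posterior Hox gene that RA reduced, while it was low in untreated Neil2-deficient EBs and rose with RA. Hoxc8, first among those 6 and exceeded by posterior Hox genes of lower mean level (log2 difference 6.84 ± 0.74, FDR = 0.00013), stood at 0.163, 0 and 0.0453 CPM in EBs and 14.4, 8.96 and 10.3 CPM in EBs + RA, and at 9.85, 8.48 and 3.29 CPM in control EBs and 10.2, 7.84 and 7.52 CPM in control EBs + RA. T, which fell in both genotypes and less far in Neil2-deficient EBs, stood at 70.7, 72.1 and 119 CPM in control EBs and 0.432, 0.341 and 0.132 CPM in control EBs + RA (log2 difference 5.6 ± 0.90, FDR = 0.0018), and Mixl1 (6.47) and Cdx2 (6.35) also belonged to those 6. Of 16 genes of primitive streak and mesoderm 9 had a higher response and 2 a lower one, namely Foxc2 (log2 difference -2.21 ± 0.65, FDR = 0.046) and Lhx1 (log2 difference -1.64 ± 0.43, FDR = 0.029). The Foxc2 call was lost without control clone #1 EBs, control clone #7 EBs, Neil2 clone #1 EBs or control clone #4 EBs + RA, and when both libraries of Neil2 clone #1 were left out or genes of low counts were kept in the test. The untreated T level of Neil2-deficient EBs lay far below that of control EBs. The same held for the untreated means of Mixl1 (2.24 against 93.5 CPM) and Cdx2 (1.66 against 70.5 CPM). Mixl1 fell with RA in both genotypes, and Cdx2 rose in Neil2-deficient and fell in control EBs. Pmp22, a myelin protein gene (ENSMUSG00000018217, chr11:62942484-62973049, plus strand), was the other gene on that list, at 5.21, 3.23 and 3.26 CPM in EBs and 145, 220.3 and 208 CPM in EBs + RA and 192, 199 and 143 CPM in control EBs and 81.8, 71.8 and 114 CPM in control EBs + RA (log2 difference 6.56 ± 0.35, FDR = 4.1e-07). Wnt genes shared the direction, with 8 of 14 higher (5 without control clone #4 EBs, Neil2 clone #11 EBs + RA or Neil2 clone #14 EBs + RA and 5 at an FDR below 0.05) and Wnt5a at 4.86. In control EBs 10 of the 14 Wnt genes fell and 3 rose. Their summed level was 60.5 to 114.7 CPM in EBs and 63.2 to 104 CPM in EBs + RA. It was 374.7 to 593.1 CPM in control EBs and 112.3 to 172.5 CPM in control EBs + RA.

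Pluripotency genes fell less far than in control EBs. Of 19 members 12 had a higher, that is less negative, response and none a lower one, or 1 without control clone #7 EBs + RA or Neil2 clone #11 EBs + RA, 1 with clone as a block and 1 with DESeq2. Pou5f1 stood at 421, 405 and 406 CPM in control EBs and 12.7, 17.2 and 20.1 CPM in control EBs + RA (log2 difference 1.68 ± 0.49, FDR = 0.046), and Dppa5a differed by 1.89 and Lin28a by 0.67. The higher count depended on single libraries and on the filter, being 4 without control clone #1 EBs + RA, 5 without control clone #1 EBs or Neil2 clone #11 EBs + RA, 6 without control clone #4 EBs, 7 without Neil2 clone #14 EBs or Neil2 clone #14 EBs + RA, 6 with genes of low counts kept in the test and 6 at an FDR below 0.05. The Pou5f1 call was lost without control clone #1 EBs + RA or Neil2 clone #11 EBs + RA and when genes of low counts were kept in the test.

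Retinoid genes differed in part. Of 19 direct targets 5 were higher and 1 was lower. The higher count was 8 with both libraries of clone #1 left out and 8 with clone as a block, and the lower count 0 without Neil2 clone #14 EBs, control clone #1 EBs + RA or control clone #4 EBs + RA, 2 without Neil2 clone #1 EBs, Neil2 clone #11 EBs or Neil2 clone #1 EBs + RA, 3 with both libraries of clone #1 left out and 2 with clone as a block. Cdx1 (4.54) and Hoxb1 (2.88) were among those higher, and Cyp26a1 stood at 99.2, 92.5 and 122 CPM in control EBs and 602, 532 and 821 CPM in control EBs + RA (log2 difference 1.94 ± 0.51, FDR = 0.03), a call that was lost when genes of low counts were kept in the test. Rarb was lower (log2 difference -1.1 ± 0.31, FDR = 0.037), and its call was lost without Neil2 clone #14 EBs, control clone #1 EBs + RA or control clone #4 EBs + RA. Aldh1a2 (-2.82) and Crabp1 (-3.73) were lower as well, and Aldh1a3 was higher (3.04) but not without control clone #1 EBs or Neil2 clone #14 EBs. Cyp26b1 stood at 1.26, 1.35 and 0.711 CPM in control EBs and 237, 242 and 293 CPM in control EBs + RA and had no called difference (log2 difference 0.51 ± 0.35, FDR = 0.41), except with both libraries of clone #1 left out (log2 difference 1.01, FDR = 0.095). The Neil2 transcript fell by 1.11 on the log2 scale in control EBs, and the difference was not called (log2 difference 0.00 ± 0.41, FDR = 0.998). No endoderm gene of either list differed, but visceral and definitive endoderm genes with a higher response numbered 1 without Neil2 clone #1 EBs or control clone #7 EBs + RA, 1 with both libraries of clone #1 left out and 8 with clone as a block, and with clone as a block 3 parietal endoderm genes had a lower and 1 a higher response.

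RA changed 8377 of 15688 genes in Neil1-deficient EBs (53.4%), with 4427 (28.2%) rising and 3950 (25.2%) falling. Against Neil1-deficient EBs no gene passed the test of a different RA response. Of 16517 genes tested 0 passed (0.0%) with edgeR, the smallest FDR being 0.651, and 1142 genes had an unadjusted p below 0.05, while DESeq2 called 2. These 2, named after their values were seen, were Rps18, a ribosomal protein gene (log2 difference 0.55, DESeq2 FDR = 0.047), and B4galnt2, a glycosyltransferase gene (log2 difference -2.94, DESeq2 FDR = 0.047). Rps18 went from a mean of 1950 to 1232 CPM in Neil2-deficient and from 1962 to 859.4 CPM in Neil1-deficient EBs, and B4galnt2 from 3.39 to 1.23 CPM and from 2.71 to 7.64 CPM. A difference that misses the threshold does not show that the responses were equal. For Tubb3 the log2 fold changes with RA were -2.01 in Neil2-deficient and -1.83 in Neil1-deficient EBs, for Pax6 1.18 and 0.14, for Rarb 6.24 and 6.56, and for Hoxa5 7.82 and 8.01.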

How the data were processed

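Total RNA of each clone was prepared by the authors with an unstranded TruSeq v2 kit and sequenced on a HiSeq 2000. The authors aligned reads with TopHat2 2.0.9 and Bowtie2 2.1.0 to NCBIM37 (mm9) and deposited raw gene counts made with HTSeq-count 0.5.4, which were used as deposited, without normalization. The 5 rows that name no gene (24.6 to 30.4% of reads in the 6 libraries, of which reads aligned to more than 1 place were 14.8 to 19.0%) were left out, and 37205 of 37991 identifiers were named.

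Counts were analysed with edgeR 4.0.16 in R 4.3.3 (filterByExpr, TMM, robust quasi-likelihood fit, Benjamini-Hochberg FDR). The RA response was fitted on the 6 libraries, and each difference from control or Neil1-deficient EBs as an interaction over 12 libraries. Calls needed an FDR below 0.1, and for the RA response an absolute log2 fold change above 0.5. Printed CPM were TMM-scaled over the 18 EB and EB + RA libraries of the 3 genotypes. DESeq2 1.42.0, other scaling, no filter, other limits, clone as a block, all 33 libraries in 1 fit and the omission of libraries were alternatives, and leaving out both libraries of clone #1 was chosen after seeing the data. Replicates were separate clones, and p-values measure the spread among these clones.

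Same-numbered libraries come from the same clone and, per the treatment protocol in the labels, from EBs that were divided on day 4, so the numbers pair the samples. Deviations of the paired libraries from their group means correlated at 0.371, 0.324 and 0.258 for clones #1, #11 and #14. The main fit has no block, and the sources used here do not state one for the study's own comparisons.

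In data simulated for the RA response, 15694 genes were tested. Of these, 100 of 100 changed by 1 and 100 of 100 changed by 2 on the log2 scale were recovered. Among the unchanged genes 22 were called. For the interaction with control, 80 of 100 and 100 of 100 were recovered. The simulation gave every gene the same variability and no clone effect, and changed only well-counted genes. It therefore does not show recovery for genes of few counts or for replicates that differ as these clones did.

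Named genes were the 12 largest rises and 12 largest falls among called genes whose mean log2 CPM reached 2 and whose groups did not overlap, the 6 largest differences from control in each direction, examples from gene lists, the whole of the retinoid and study lists, and Neil2, Pou5f1, Gata6 and Eomes. Members, lists and examples were chosen with earlier results of these data known. Counting intervals cover counting error only. Values of some listed genes are not reported here.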

Additional observations from a re-analysis of the deposited data

Results flagged for a closer look

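The RA response was compared between 2 genotypes, Neil2-deficient and control EBs, by an interaction test over 12 libraries, which called 1243 genes with a higher and 1338 with a lower response in Neil2-deficient EBs. The most negative log2 differences among genes of sufficient level were those of Miat (-9.28), Tcfap2b (-7.79), Nhlh2 (-7.15), Unc5a (-6.37), Insm1 (-5.91) and Pax6 (-5.65). The most positive were those of Hoxc8 (6.84), Pmp22 (6.56), Mixl1 (6.47), Cdx2 (6.35), Hoxd9 (5.69) and T (5.60). Each of these differences carries its own test in the comparison above. With 3 clones in a group, no test for a single outlying library was made.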

How the results depend on the processing

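The RA response had 5467 to 7611 called genes when 1 library was left out, of which 5208 to 6189 had the same call as with all libraries, and 3841 with an absolute log2 fold change above 1, and no alternative gave a call of opposite direction. Differences from control numbered 4163 with clone as a block, 1687 at an FDR below 0.05 and 1618 to 3500 with 1 library left out, again with 0 opposite calls. The share of higher calls was 48.2% and moved to 56.8% with both libraries of clone #1 left out. For differences from Neil1, DESeq2 called 2 genes and the other alternatives 0. The block changed no call other than those given beside the results, for the genes named.

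No value whose direction turned was called. Leaving out both libraries of clone #1 gave log2 fold changes of -0.0037 for Lrat, 0.241 for Pax7 and 0.11 for Neil1, and a log2 difference of 0.228 for Pax3. With 1 library left out, log2 fold changes ran from -0.235 to 0.276 for Lrat, -0.0558 to 0.119 for Mki67, -1.04 to 0.16 for Crabp1 and -0.21 to 0.0603 for Neil1, and log2 differences from control from -1.54 to 0.145 for Pax3, -0.075 to 0.921 for Gata6 and -0.268 to 0.51 for Neil2. The Neil2 difference was -0.00377 with DESeq2 and -0.00481 with RLE size factors. Genes below about 1 CPM rest on few counts, and the cause of these changes was not tested.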
